A study of Sus scrofa domesticus with 4 samples.

Results

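Receptors through which signals of body energy reach the anterior pituitary were examined: the leptin receptor LEPR and its regulator LEPROT, the adiponectin receptors ADIPOR1 and ADIPOR2, and the orexin receptors HCRTR1 and HCRTR2. Their probes were found by the RefSeq accession printed for each probe, matched without its version to the pig gene symbol. The 6 genes had 11 probes of the 43603 on the array, and each gene had at least 1. Probes that may lie in these genes under another kind of identifier were not used. LEPROT is not itself a receptor, but its probes are counted among the receptor probes below.

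The study compared anterior pituitaries from mature crossbred gilts, young female pigs of Large White and Polish Landrace stock weighing about 110 kg, taken on days 12 to 13. The 4 pregnant gilts had been bred naturally and carried conceptuses. The 4 cyclic gilts were on the same days of the estrous cycle. On each of the 4 arrays a pregnant gilt was hybridised against a cyclic gilt in the other colour, 8 gilts in all. By the sample labels the pregnant gilt had Cy3 on arrays 1 and 3, and the dyes were swapped on arrays 2 and 4. Whole glands were used, so fewer cells of a type and less RNA per cell cannot be told apart.

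Leptin, made by fat cells, binds LEPR, a cytokine receptor that signals through JAK2 and STAT3. LEPROT encodes a small membrane protein that holds leptin receptors back from the cell surface. Adiponectin, another product of fat, acts through ADIPOR1 and ADIPOR2, membrane proteins of the PAQR family that lead to AMP-activated kinase and PPARA. Orexins, peptides of the hypothalamus, act through the G protein-coupled receptors HCRTR1 and HCRTR2. These hormones are known to act on the hormone secretion of pituitary cells and link feeding with reproduction.

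Transcripts of LEPROT, ADIPOR1 and ADIPOR2 were measured in every gilt, while LEPR, HCRTR1 and HCRTR2 were at background. Among the tested probes of LEPROT, ADIPOR1 and ADIPOR2 every fitted ratio of pregnant over cyclic was below 0. None passed the threshold. A LEPROT probe had the most negative value, -0.53 ± 0.45 on the log2 scale (SD, n = 4). At a Benjamini-Hochberg adjusted p under 0.05, limma called 0 of the 5 tested receptor probes and 0 of all 21627 tested probes (0.0%). At an unadjusted p under 0.05 limma listed 2 of the 5 receptor probes, both lower in pregnant gilts, against 18.1% of all tested probes and 7.62% that were lower in pregnant gilts. That is 3904 probes, of which 57.8% were higher in pregnant gilts, a share that became 82.2% of 2555 probes with median centring in place of loess. A ratio below 0 was found for 5 of 5 receptor probes, which stand for 3 genes, and for 46.9% of all tested probes. Among the tested genes with a name, as the receptors are, 56.2% had a ratio below 0.

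LEPR (NM_001024587), the receptor for leptin itself, was represented by 1 probe, A_72_P302834, and was not detected. Its spot was well above background in 0 of the 8 channels, that is in no gilt. In pregnant gilts its median intensity was 34, 27, 32 and 31 scanner units on arrays 1 to 4, beside a local background of 33, 34.5, 35 and 40. In cyclic gilts it was 31, 30, 30.5 and 30, beside 34, 32.5, 36 and 39.5. The spot was no more than 1 unit brighter than its surroundings in any gilt, and no ratio is given. The 153 negative control spots of each array had medians of signal minus background between -6.0 and -4.0, and the 95th percentile ran from -1.0 to 2.80. Only 1 of the 8 LEPR values, 1 unit in the pregnant gilt of array 1, lay above that percentile on its own array and dye. The probe's place on the transcript was not given in the files, so nothing can be said of long or short receptor forms.

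**Figure D1:**
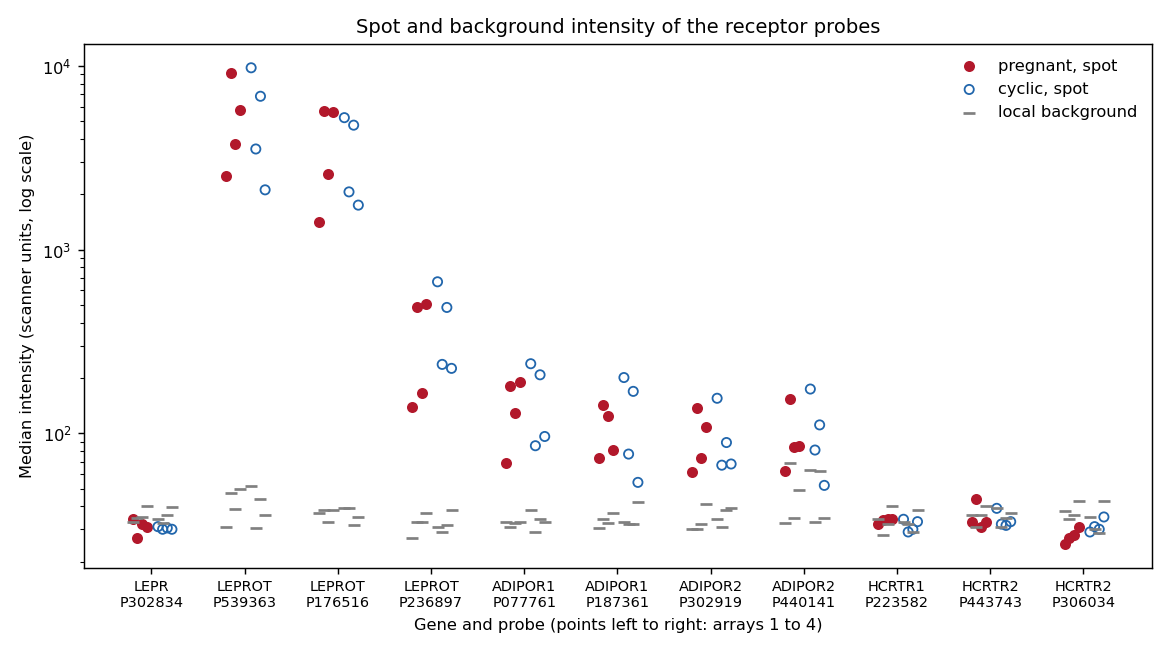
Median intensity of each spot in scanner units on a log axis, for the 11 receptor probes, in pregnant (filled) and cyclic (open) gilts with arrays 1 to 4 from left to right; grey dashes are the local background. The LEPR, HCRTR1 and HCRTR2 spots lie among the grey dashes, and the LEPROT, ADIPOR1 and ADIPOR2 spots lie above their own; Cy5 reads brighter than Cy3, so unnormalised points of the groups are not to be set against each other.

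LEPROT (NM_001145388), whose gene lies on the same chromosome as LEPR in the NCBI annotation of the pig genome, had 3 probes, each well above background in 8 of 8 channels. Probe A_72_P236897 was free of outlier flags and alone of the 3 could be tested. Its log2 ratio was -0.74, -0.35, -1.03 and 0.00 on arrays 1 to 4. The ratio was thus negative on arrays 1 to 3 and at 0 on array 4. The normalised log2 level was 7.89, 8.22, 7.73 and 9.14 in the pregnant gilts and 8.63, 8.57, 8.77 and 9.14 in the cyclic gilts of arrays 1 to 4. The pregnant gilts of arrays 1 to 3 lay below all cyclic gilts, and that of array 4 lay with the highest, so the groups overlapped. The fitted log2 ratio of -0.53 (SE 0.10) had a 95% confidence interval of -0.80 to -0.26, and the mean was 1.45-fold lower in pregnant gilts. The limma p was 0.00417 and the adjusted p 0.235.

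The call for LEPROT depended on the fit. A separate-channel fit of the 8 gilts gave the same ratio with an adjusted p of 0.0468 in limma. Without array 1 the ratio fit gave -0.60 with an adjusted p of 0.0269, while leaving out array 2, 3 or 4 gave adjusted p of 0.853, 0.170 and 0.588. The separate-channel fit called 5.26% of all probes, 1.96% as lower in pregnant gilts, and the fit without array 1 called 15.5%, with 4.56% as lower, so the LEPROT call stands among many. Without array 2 limma called 0.0%, without array 3 0.0198% and without array 4 0.0%.

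The ratios of LEPROT were farther from 0 on arrays 1 and 3, with a mean of -0.89, than on arrays 2 and 4, with -0.18. Arrays 1 and 3 differ from arrays 2 and 4 both in dye and in the gilts they hold, so a dye effect and a difference between gilts cannot be told apart. The fit took the split as a dye effect of 0.36. If pregnant RNA had been in Cy3 on every array, as the labelling protocol can also be read, the ratio would be -0.36 with a limma adjusted p of 0.848.

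The 2 brighter LEPROT probes carried an outlier flag of the scan software on 3 of 4 arrays each and were left out of the test. The flag was set on the spot, and in the Cy5 channel on every flagged array. With flagged spots kept, A_72_P539363 gave -0.40, -0.27, -0.40 and 0.07 on arrays 1 to 4. Its order over the arrays resembled that of the tested probe: negative on arrays 1 to 3, and highest on array 4. In the pregnant gilts its log2 level was 11.90, 12.12, 11.91 and 12.42, and in the cyclic gilts it ran from 12.30 to 12.39. A_72_P176516 gave -0.37, -0.12, -0.43 and 0.32, likewise negative on arrays 1 to 3. Its log2 level was 11.03, 11.46, 11.42 and 12.40 in pregnant and 11.41, 11.58, 11.84 and 12.09 in cyclic gilts. On this probe the pregnant gilts of arrays 2 and 3 lay above the cyclic gilt of array 1, and that of array 4 was highest. Fitted with flags kept, the ratios were -0.25 (SE 0.09; limma adjusted p = 0.258) and -0.15 (SE 0.10; limma adjusted p = 0.466), closer to 0 than that of A_72_P236897. The ratio of A_72_P176516 exceeded that of A_72_P236897 on every array, by 0.23 to 0.61. The 3 probes therefore had the same sign on arrays 1 to 3 and did not have the same size of ratio.

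**Figure D2:**
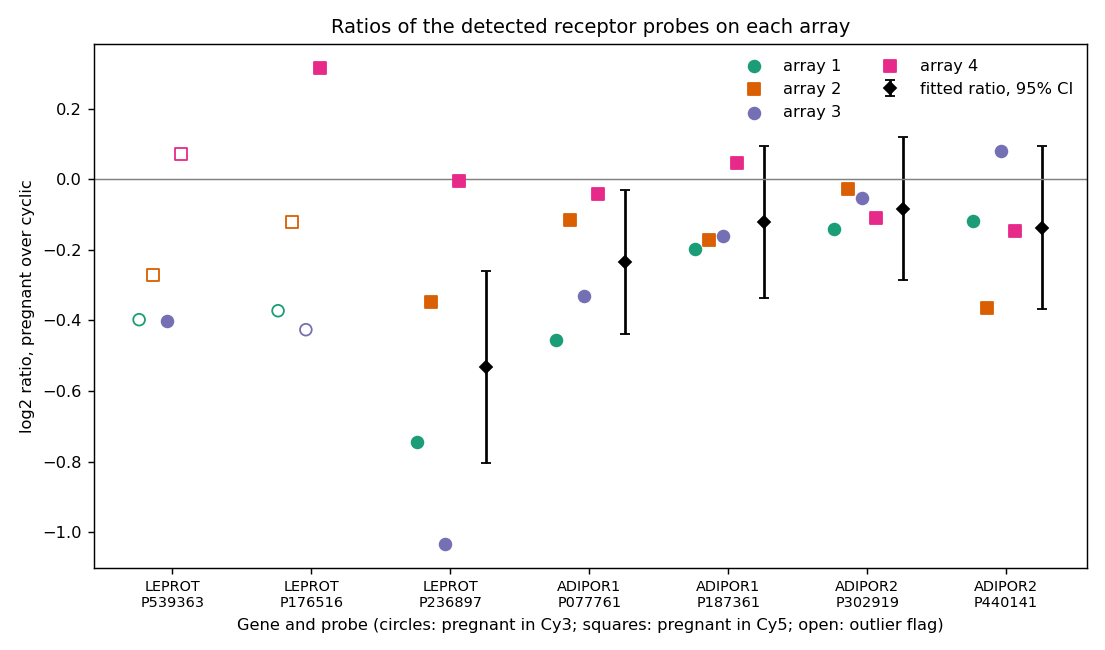
log2 ratio of pregnant over cyclic on each of the 4 arrays for the 7 receptor probes above background, with open symbols for spots with an outlier flag; black diamonds are fitted ratios with 95% confidence intervals for the 5 tested probes. LEPROT probes are lowest on arrays 1 and 3 and highest on array 4, and the ADIPOR2 intervals include 0.

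ADIPOR1 (NM_001007193), the adiponectin receptor tied mainly to AMP-activated kinase, had 2 probes, both above background in 8 of 8 channels. Probe A_72_P077761 gave log2 ratios of -0.46, -0.11, -0.33 and -0.04 on arrays 1 to 4, negative on each. Of all tested probes 11.9% were negative on every measured array. Its log2 level was 7.02, 7.23, 7.44 and 7.93 in pregnant and 7.47, 7.34, 7.77 and 7.97 in cyclic gilts. The levels of the groups overlapped, since arrays differed more from each other than the gilts of an array. The fitted ratio was -0.24 (SE 0.08), with a 95% confidence interval of -0.44 to -0.03, a limma p of 0.0316 and an adjusted p of 0.252. As with LEPROT, the mean was farther from 0 on arrays 1 and 3, at -0.39, than on arrays 2 and 4, at -0.08.

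The other ADIPOR1 probe, A_72_P187361, gave -0.20, -0.17, -0.16 and 0.05. It was negative on arrays 1 to 3 and not on array 4, where its signal minus background was only 44 in the pregnant and 12 in the cyclic gilt. The fitted ratio of -0.12 (SE 0.08) had a confidence interval of -0.34 to 0.09, which includes 0, and a limma adjusted p of 0.473. Without array 2 it was -0.07. The probes of ADIPOR1 differed by -0.11 ± 0.13 (SD, n = 4 arrays), a difference smaller than its spread.

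ADIPOR2 (NM_001007192), the receptor tied mainly to PPARA, also had 2 probes above background in 8 of 8 channels. Probe A_72_P302919 gave -0.14, -0.03, -0.05 and -0.11 on arrays 1 to 4. These lay closer to 0 than those of ADIPOR1 probe A_72_P077761 on arrays 1 to 3. The fitted ratio was -0.08 (SE 0.08), with an interval of -0.28 to 0.12 and a limma adjusted p of 0.598. Probe A_72_P440141 gave -0.12, -0.37, 0.08 and -0.15 and a fitted ratio of -0.14 (SE 0.09), with an interval of -0.37 to 0.09 and a limma adjusted p of 0.451. Without array 1 it was -0.09 and without array 2 -0.08. Its local background was flagged as an outlier on 4 of 4 arrays, reaching 69 units beside a spot of 153. Its sign turned to 0.12 when pregnant RNA was read as Cy3 on every array. For ADIPOR2 the intervals allow ratios on either side of 0.

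Signals of ADIPOR1 and ADIPOR2 were low, between 12 and 201 units above local background, and the offset of 50 added in background correction draws ratios of such spots towards 0. The scan software's processed signals carry no such offset, but differ also in background subtraction and normalisation. The part of the offset alone was not tested. The processed signals gave -0.41 and -0.27 for the probes of ADIPOR1 and -0.21 and -0.32 for those of ADIPOR2, with limma adjusted p between 0.288 and 0.533. For LEPROT the processed signals gave -0.67 with an adjusted p of 0.235 in limma. With them the direction was the same, and the ratios of ADIPOR1 and ADIPOR2 were over 1.5 times larger. Median centring in place of loess gave -0.15 for ADIPOR1 probe A_72_P077761, -0.02 for ADIPOR2 probe A_72_P302919 and -0.42 for LEPROT.

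HCRTR1 (NM_001043346) was not detected: its probe, A_72_P223582, was well above background in 0 of 8 channels. Signal minus background was -2, 5.5, 2 and -6 units in the pregnant and 1, -3, 1 and -5 in the cyclic gilts of arrays 1 to 4. The values scatter around 0, and 2 of the 8, the pregnant gilts of arrays 2 and 3, lay above the 95th percentile of the negative controls. HCRTR2 (NM_001129951) had 2 probes. A_72_P306034 was well above background in 0 of 8 channels, with values from -12.5 to 1.5 units. A_72_P443743 was so in 1 of 8, the pregnant gilt of array 2, at 13 units. Its other values ran from -7 to 1, so a single gilt stood out, and only on 1 of the 2 probes. For the orexin receptors no ratio is given, and a transcript below the limit of these spots was not detectable.

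**Figure D3:**
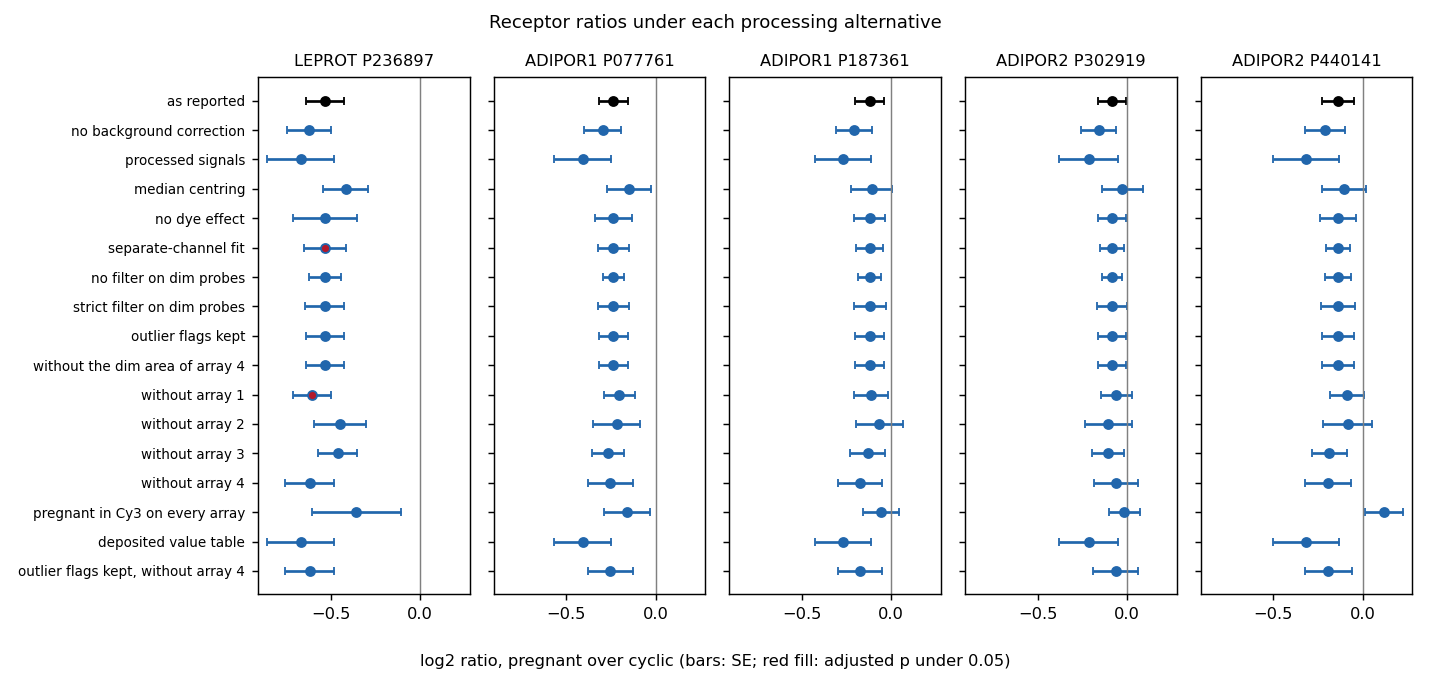
Fitted log2 ratio of pregnant over cyclic (x axis, bars are SE) of the 5 tested receptor probes under each processing alternative (y axis). All values lie below 0 except that of ADIPOR2 probe A_72_P440141 with pregnant RNA read as Cy3 on every array, and red fill marks the 2 settings that called LEPROT.

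The ligands were looked at in the same way. LEP (NM_213840), the leptin gene, had probe A_72_P165551 above background in every gilt, with 55, 110, 64 and 129 units above background in pregnant and 129.5, 27, 23 and 43 in cyclic gilts. Its log2 ratio was 0.17, 0.14, 0.57 and 0.08 on arrays 1 to 4, positive on each, with a fitted value of 0.24 (SE 0.10; limma adjusted p = 0.293). The other LEP probe, A_72_P442233, was well above background only in the cyclic gilt of array 1, so detection of LEP rests on 1 probe. HCRT (NM_214156), the precursor of the orexins, was above background in 8 of 8 channels. Its ratio was -0.10, 0.31, -0.43 and 0.41 on arrays 1 to 4, negative where pregnant RNA carried Cy3 and positive where it carried Cy5, and the fitted value was 0.05 (SE 0.09; limma adjusted p = 0.824). ADIPOQ, which encodes adiponectin, had 2 probes, and the better of them reached 2 of 8 channels.

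Other secreted factors of appetite and metabolism gave 5 positive and 4 negative ratios among 9 measured genes with LEP and HCRT included. CARTPT, a peptide that curbs feeding, had log2 ratios of -1.68, -0.09 and -2.36 on arrays 2 to 4 and an outlier flag on array 1. Its fitted ratio, from 3 arrays of unequal dye orientation and with the dye effect taken out, was -1.06 (SE 0.18; limma adjusted p = 0.235). The values of CARTPT thus ranged widely between arrays. They were lowest on arrays 2 and 4, where pregnant RNA carried Cy5, and -0.09 on array 3, where it carried Cy3. A dye effect and a difference between gilts cannot be told apart for CARTPT either. GHRL, the ghrelin gene, had 0.24 ± 0.52, RARRES2, the chemerin gene, 0.06 ± 0.16, and AGRP, an antagonist of melanocortin receptors, -0.01 ± 0.06 (SD, n = 4 each). The carrier of retinol RBP4 had -0.26 ± 0.59, NAMPT, an enzyme of nicotinamide salvage, -0.23 ± 0.42, and POMC, the corticotropin precursor, 0.16 ± 0.64, with another of its probes at -0.26.

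Of 21 genes of leptin signalling 9 were measured, 4 with a positive and 5 with a negative ratio and a median of 0.00. The kinase JAK2 had 0.03 ± 0.23, with its other probe at -0.26, the transcription factor STAT3 0.02 ± 0.44 and the feedback inhibitor SOCS3 -0.02 ± 0.11 (SD, n = 4). The kinase AKT1 had the smallest p of the list, at -0.37 ± 0.37 (limma adjusted p = 0.267). LEPROTL1, a relative of LEPROT, had no named probe. Of 24 genes of adiponectin signalling 10 were measured, 4 positive and 6 negative, with a median of -0.04. APPL1, an adaptor that binds adiponectin receptors, had 0.15 ± 0.33, and CPT1A, which brings fatty acids into mitochondria, -0.51 ± 0.70 (limma adjusted p = 0.307). PPARA was above background in 0 of 8 channels. Of 24 genes of orexin signalling 8 were measured, 4 positive and 4 negative, with a median of 0.00. GNAQ, the G protein alpha subunit coupled to orexin receptors, had 0.04 ± 0.11, and the cation channel gene TRPC1 0.33 ± 0.34 (limma adjusted p = 0.252). Median centring turned the adiponectin median to 0.12 and gave 0.10 for the orexin list and 0.05 for the leptin list. In each list 0 genes passed over all probes, as did 0 of all 1744 named genes (0.0%), whose median was -0.02 and of which 56.2% were negative. At an unadjusted p under 0.05 limma listed 1 of 9, 0 of 10 and 1 of 8 genes, against 13.8% of named genes.

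**Figure D4:**
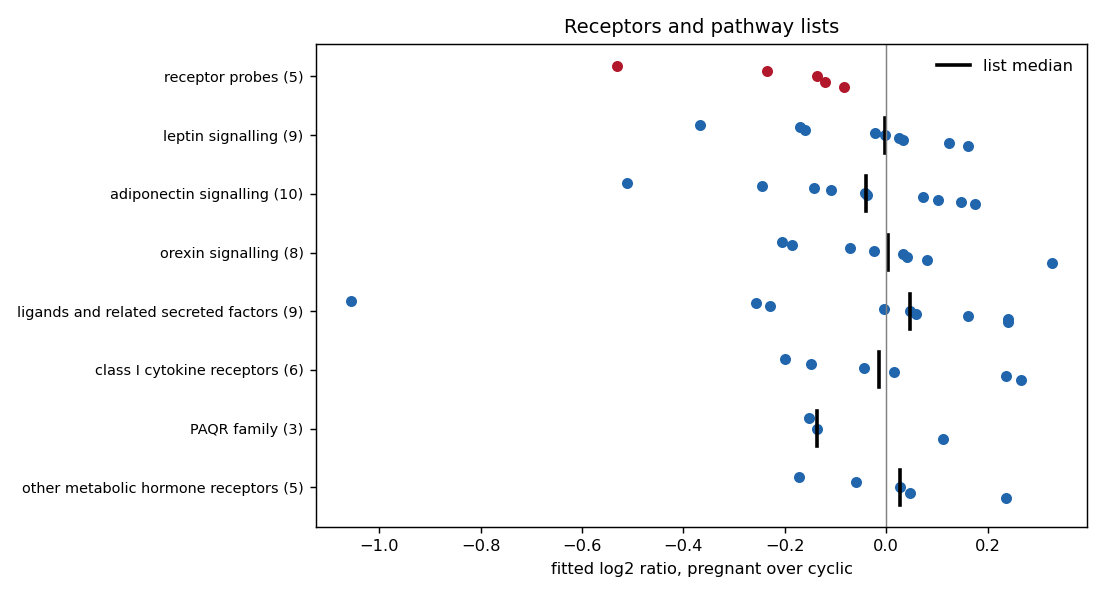
Fitted log2 ratio of pregnant over cyclic of the 5 tested receptor probes (red) and of the genes of each pathway list (blue, number measured in parentheses), with the list median as a black bar. The receptor probes lie between -0.53, for LEPROT, and -0.08, for ADIPOR2, and the list medians between -0.14 and 0.05.

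Relatives of the receptors were mixed. Among class I cytokine receptors, the family of LEPR, 3 of 6 measured genes were positive and the median was -0.01. IL6ST, the shared subunit of interleukin 6 type receptors, had 0.27 ± 0.12 with its other probe at 0.04, and GHR, the growth hormone receptor, 0.24 ± 0.34. Of the PAQR family beside the adiponectin receptors 3 genes were measured, with MMD at -0.15 ± 0.51, the membrane progestin receptors PAQR7 at -0.14 ± 0.47 and PAQR8 at 0.11 ± 0.93, whose lowest probe had -0.12. Of other receptors for metabolic hormones 5 were measured, 3 positive and 2 negative, with IGF1R at -0.17 ± 0.07 and the ghrelin receptor GHSR at 0.05 ± 0.05 (SD, n = 4). In these 3 lists 0 genes passed over all probes by limma, and at an unadjusted p under 0.05 limma listed IL6ST alone, against 13.8% of named genes.

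The named genes whose 4 ratios were nearest to those of a receptor were taken by the smallest root mean square difference among 1489 genes, as a description. For LEPROT they were SGMS1, a sphingomyelin synthase, at 0.10, PAPOLA, a poly(A) polymerase, at 0.11, and NANOS1, an RNA-binding regulator, at 0.12, against a median of 0.65 over all genes. For ADIPOR1 they were ATP9A, AKAP10 and POMGNT1, at 0.07 to 0.08 against a median of 0.34. For ADIPOR2 they were ARF5, GDF15 and PAFAH1B1, at 0.04 against a median of 0.26. Within 0.1 of ADIPOR2 lay 76 genes and within 0.1 of ADIPOR1 13, so for these receptors the likeness does not single out the genes named. Within 0.1 of LEPROT lay 0 genes, with SGMS1 at 0.103. Whether its likeness to the genes named has a meaning was not tested.

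As a check of the tissue, all 14 hormone and lineage genes of the anterior pituitary with a probe were measured. Of 6 adipocyte markers with a probe 2 were measured, LEP and FABP4. Among the others, LPL was above background in up to 5 of 8 channels, ADIPOQ in 2, CIDEC in 1 and PLIN1 in 0. Of markers of the posterior and intermediate lobe 4 of 5 were measured, OXT among them. The percentage of spots well above background ran from 47.5% to 71.8% over arrays and dyes, 0 spots were saturated, and a dim area covered 9.73% of array 4 but held 0 spots of the 11 receptor probes. The SD of the ratios over tested probes ran from 0.276 on array 4 to 0.581 on array 3. Markers of other cells were mixed beside LEPROT. Of the endothelial genes, ENG had -0.45, -0.14, -0.81 and -0.01 on arrays 1 to 4, and CDH5 had 0.18, -0.66, -0.64 and 0.18. The brightest PECAM1 probe had 0.45, 0.13, 0.45 and -0.20, with a fitted ratio of 0.20. Another of the 3 tested PECAM1 probes had a fitted ratio of -0.26. Of the stromal genes, ACTA2 had -0.61, -0.39, -0.18 and -0.25 on arrays 1 to 4, and DCN had 0.70, -0.15, -0.32 and 0.67. SPARC had -0.84, -0.68 and -0.29 on arrays 2 to 4. Of the 14 hormone and lineage genes 6 had a positive and 8 a negative fitted ratio. The lactotroph hormone PRL had -1.75, 0.01, -1.42 and -0.41 on arrays 1 to 4. GH1, of somatotrophs, had -0.94, 1.14, -2.39 and 2.16, and TSHB, of thyrotrophs, had -0.15, -4.85, 6.30 and -1.36. The lineage factor POU1F1 had 0.74, 0.51, 0.37 and 0.21. The summed level of 3 measured endothelial markers of 5 ran from 10.82 to 11.23 in pregnant and 10.91 to 11.37 in cyclic gilts on the log2 scale, and that of 3 stromal markers of 7 from 12.67 to 13.19 and 12.78 to 13.60. PRL, the only lactotroph marker, ran from 16.51 to 17.80 and 17.79 to 18.37. The part of these cells in the LEPROT ratio was not tested.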

How the data were processed

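Per the file headers, the authors' scanner output was made with Agilent Feature Extraction 10.7.3.1 on array design 026440 and holds median intensities of spots and of their local background in Cy3 and Cy5. They also hold processed intensities, which the scan software had background-subtracted and dye-normalised, and, as deposited, a log10 ratio with Cy5 as numerator. The authors' deposited value table held log2 ratios. Against log2 processed Cy5 over Cy3 its columns had slopes of -1, 1, -1 and 1, so it is turned to pregnant over cyclic by the dyes of the sample labels, and column medians of 0.07, -0.08, -0.18 and -0.17, so it is not centred. The tool behind it is not given in the labels or headers.

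Here background was corrected by normexp (offset 50) on median intensities. Arrays were normalised by loess with control spots at weight 0, feature outliers were dropped and repeated spots averaged. Testing required that at least 1 group was well above background on its 4 arrays, and no flag on at least 3 arrays, which left 21627 probes, 19880 of them on 4 arrays. limma 3.58.1 in R 4.3.3 fitted the group difference and a dye effect per probe, with Benjamini-Hochberg adjustment over all tested probes and a threshold of 0.05. Log2 levels of channels came after Aquantile scaling between arrays. Names were found for 5578 probes of 2459 genes. A gene was represented by its brightest tested probe. The named genes are the 6 receptors, the 3 genes nearest to each measured one, measured ligands, and up to 4 genes per list with the smallest p, plus JAK2, STAT3, SOCS3, APPL1, PRKAA1, PPARA, GNAQ and LEPROTL1 where measured; IGF1R, GHSR, PAQR7, PAQR8, MMD and the marker genes came from the lists. The receptors and lists were chosen with earlier results of these data known. The fit was tested on simulated data. No probe sequence was among the files used. The alternatives tried were other background, signal, normalisation, model, filter, flag, dye and array choices. With 4 arrays the precision is limited by their number.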

Additional observations from a re-analysis of the deposited data

Results flagged for a closer look

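The log2 ratio of ADIPOR1 probe A_72_P187361 on array 4, 0.045, lay far from the other 3 arrays, which ran from -0.20 to -0.16. Its gap to the nearest other array was 0.846 of the whole range, above Dixon's 95% critical value for 4 samples. Of 21 sets of 4 values from the receptor probes above background 1 was set apart in this way, where chance gives about 1 in 20. The spot was dim in both channels of that array and lay outside the dim area; the part of this in its ratio was not tested.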

How the results depend on the processing

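Of 80 ratios of the tested receptor probes under alternatives, 77 kept their sign and their side of the threshold. Many of these were not free to change sign. Leaving out the dim area, keeping flagged spots, the filter choices, the fit without a dye effect and the separate-channel fit left every ratio unchanged. Those settings could change the p but not the sign. The deposited value table nearly repeated the processed signals, with -0.67 in both for LEPROT. LEPROT was called by the separate-channel fit, at -0.53, and without array 1; leaving out 1 array gave ratios of -0.62 to -0.45. ADIPOR2 probe A_72_P440141 turned to 0.12 with pregnant RNA in Cy3 on every array. That reading reverses the sign of arrays 2 and 4, where the probe had its most negative ratios, -0.37 and -0.15. The count of called receptor probes was 1 with the separate-channel fit and 0 to 1 on leaving out 1 array. Over all probes the count was 1 without background correction, 1 with processed signals, 1 with the deposited value table, 2 without a dye effect, 1046 with the separate-channel fit, and 0 to 3381 on leaving out 1 array. Of 42 list medians under alternatives, 36 moved by less than the spread between arrays. The others were those of the adiponectin list (0.12), orexin list (0.10) and ligand list (0.12) with median centring, of the orexin list (0.09) and ligand list (-0.01) without array 1, and of the ligand list (-0.01) with the median over probes of a gene. One alternative, outlier flags kept without array 4, was chosen after seeing the data and gave LEPROT probes -0.34, -0.26 and -0.62. Each array pairs 1 gilt of each group, so every ratio is already within a pair. Low signal over background limits ADIPOR1 and ADIPOR2, and LEPR, HCRTR1 and HCRTR2 could not be compared.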

Other observations

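In the deposited value table the undetected receptor probes carry ratios that vary with the array. LEPR (A_72_P302834) is listed at 0.99, -0.96, 0.06 and -1.12 on arrays 1 to 4, and HCRTR1 at 0.81, -0.74, 0.88 and -1.12, although no channel of either was well above background. On array 4 the probes of LEPR, HCRTR1 and HCRTR2 share the listed value of -1.12 with 8533 spots, 19.5% of the array, and 100% of these spots were not well above background in both dyes. On the other arrays no listed value occurred more than 5 times. A log2 ratio of -1.12 in that table is therefore not a measurement of a receptor transcript.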
